A study of Rattus norvegicus with 4 samples.

Results

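The interferon-response and MHC class I genes are 33 genes that cells switch on when they sense interferon, together with the genes that prepare peptides for display by MHC class I. They were found by their symbols in the FPKM values of the newborn rat prefrontal cortex, where all 33 were present among 17419 transcripts, 32 of them in all 4 libraries. Ifit3 was listed only in the libraries of female pups. Levels are given as FPKM, RNA fragments per transcript, scaled by transcript length and by sequencing depth. Of the 33 genes, 11 had a mean of at least 1 FPKM over the 4 libraries, and 21 of those listed in all 4 lay under it. All 33 are described here, and only the 11 entered the test over both sexes.

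The tissue was the frontal cortex of pups at postnatal day 1, of a strain the labels call Wistar and the study's methods call Wistar Furth. Dams received bisphenol A (BPA), a building block of plastics with oestrogen-like activity, at 5000 µg/kg of body weight each day from gestation day 1 to birth, or the vehicle alone. Each sex and treatment had 1 library, and libraries are called by both, as in control male. The study describes 3 pups per sex and treatment from independent litters and does not state whether a library pooled them. A ratio within 1 sex thus has no replicate behind it and compares a pair of libraries rather than the conditions. Over both sexes, 2 BPA libraries stood against 2 control libraries, and their p-values measure only the spread among these 4.

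Interferons are secreted proteins that warn neighbouring cells of infection. Type I interferon binds the receptor Ifnar1/Ifnar2, the kinases Jak1 and Tyk2 become active, and Stat2 and Irf9 enter the complex ISGF3. This complex enters the nucleus and binds the interferon-stimulated response element (ISRE) before its target genes, while interferon gamma acts through the gamma-activated sequence (GAS). The induced genes encode sensors of viral RNA, proteins that block steps of virus growth, and the machinery that cuts proteins into peptides, carries them into the endoplasmic reticulum and loads them on MHC class I. In the healthy brain these genes are mostly kept at a low basal level, and microglia, macrophages of the brain's borders and vessel cells usually show more of them than neurons.

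Polyadenylated RNA was sequenced to an estimated 8975000 to 9237000 fragments per library, recovered from the FPKM values themselves. Eif2s3y, a gene of the Y chromosome, was at 52.77 and 47.18 FPKM in the male libraries and at 0.01 and 0.07 in the female ones, as the sex labels say. The Y-linked Ddx3y and Usp9y were listed at 0.07 FPKM or less in all libraries that listed them and so did not separate the sexes. Of the cortical neuron markers, Neurod6 lay between 215.55 and 255.27 FPKM and Tbr1 between 61.28 and 69.00, so the labelled tissue carried its defining transcripts. Markers of other tissues nearby differed between the treatments, and their values follow below the members' counts.

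The sequences before the start sites are shown because they are where the interferon signal is read. RefSeq windows of the assembly GRCr8 were found by Gene ID for 26 of the 33 genes, and the other 7 were Ddx58, Dhx58, Isg15, Usp18, Ifit2, Mx2 and Ifitm1. The 250 bases before the annotated start were searched for the ISRE core (GAAA, any 2 bases and GAAA again, on either strand) and for the GAS motif TTCNNNGAA, which reads the same on both strands. The ISRE core was present in 16 of the 26 windows (61.5%), against 3.41% of all 33469 windows in the table. The GAS motif was present in 7 (26.9%), against 7.67% of all windows. In 4 genes both motifs were present, and in 1 of these, Bst2, a GAS motif overlapped an ISRE core. The plot of motif positions shows that the first bases of the cores lay 20 to 169 bases before the start. A match describes the letters only and does not show that a factor binds there.

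**Figure D1:**
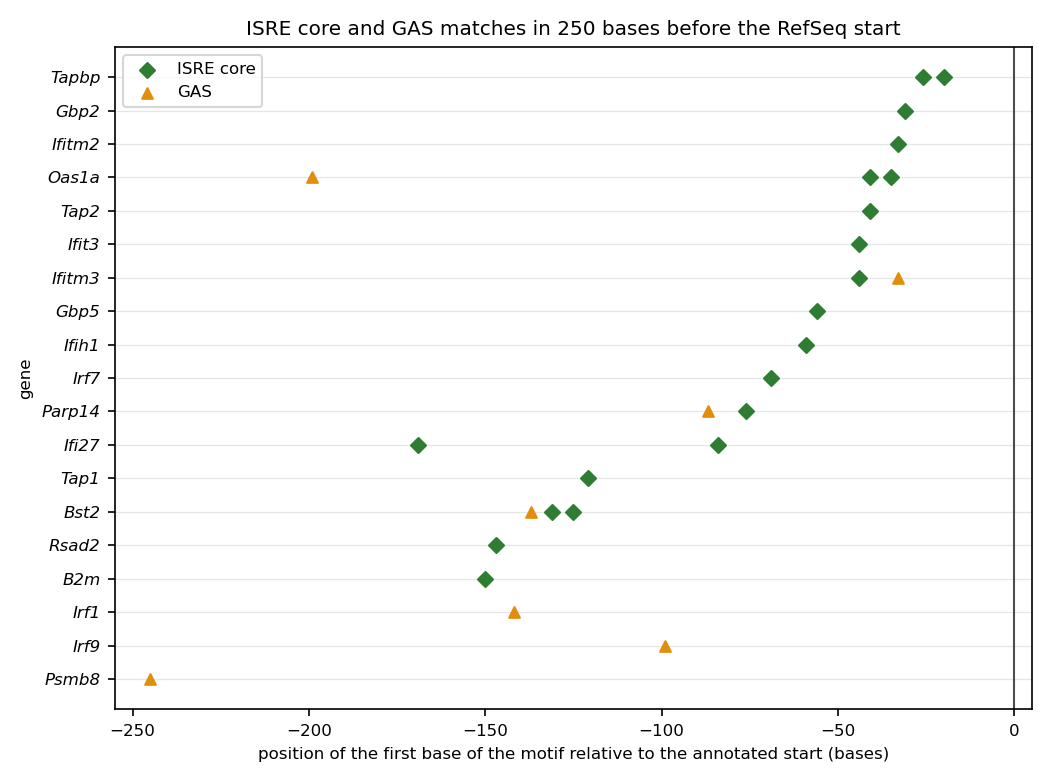
Matches to the ISRE core (diamonds) and the GAS motif (triangles) in the 250 bases before the RefSeq start (x axis, bases relative to the start) of the 19 genes that had either motif (y axis). The ISRE cores lay between 169 and 20 bases before the start, and Oas1a, Bst2, Ifi27 and Tapbp each had more than 1.

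The windows of 6 genes on which the following values turn are printed 5′ to 3′, with capitals marking each ISRE core. B2m, the light chain of MHC class I, had 1 core whose first base lay 150 bases before the start, in the window chr3:129549080-129549329 on the plus strand.
B2m: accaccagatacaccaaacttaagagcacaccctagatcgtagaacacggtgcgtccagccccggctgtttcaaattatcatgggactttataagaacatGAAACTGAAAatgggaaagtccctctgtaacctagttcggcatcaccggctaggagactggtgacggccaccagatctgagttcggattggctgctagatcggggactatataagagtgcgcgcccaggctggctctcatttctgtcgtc
Ifitm2, a small membrane protein that hinders virus entry, had 1 core 33 bases before the start, in chr1:205482349-205482598 on the minus strand.
Ifitm2: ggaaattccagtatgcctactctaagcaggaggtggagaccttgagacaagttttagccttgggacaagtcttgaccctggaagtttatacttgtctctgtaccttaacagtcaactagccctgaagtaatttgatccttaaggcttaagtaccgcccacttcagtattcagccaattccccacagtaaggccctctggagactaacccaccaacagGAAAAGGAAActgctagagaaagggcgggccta
Ifi27 had 2 cores, 84 and 169 bases before the start, in chr6:128355062-128355311 on the plus strand, and Tapbp had 2 overlapping cores, 20 and 26 bases before the start, in chr20:4967878-4968127 on the minus strand.
Ifi27: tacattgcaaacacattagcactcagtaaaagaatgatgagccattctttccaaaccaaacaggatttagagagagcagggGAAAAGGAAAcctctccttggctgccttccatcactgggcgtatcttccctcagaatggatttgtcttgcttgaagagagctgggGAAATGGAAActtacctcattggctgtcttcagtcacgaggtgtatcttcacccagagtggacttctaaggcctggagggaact
Tapbp: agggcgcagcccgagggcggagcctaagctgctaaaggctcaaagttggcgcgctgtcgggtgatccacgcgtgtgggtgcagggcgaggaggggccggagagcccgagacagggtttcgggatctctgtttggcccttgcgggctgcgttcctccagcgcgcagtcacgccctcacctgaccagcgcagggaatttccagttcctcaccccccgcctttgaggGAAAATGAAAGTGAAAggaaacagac
Stat2 and Irf9, both subunits of ISGF3, had no core in this window, in chr7:1286840-1287089 on the plus strand and chr15:33065586-33065835 on the plus strand, while Irf9 had a GAS motif 99 bases before the start.
Stat2: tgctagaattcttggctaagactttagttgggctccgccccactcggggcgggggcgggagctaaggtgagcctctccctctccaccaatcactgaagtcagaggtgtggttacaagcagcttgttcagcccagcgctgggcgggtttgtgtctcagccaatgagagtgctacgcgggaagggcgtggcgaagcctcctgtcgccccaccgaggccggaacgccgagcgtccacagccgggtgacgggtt
Irf9: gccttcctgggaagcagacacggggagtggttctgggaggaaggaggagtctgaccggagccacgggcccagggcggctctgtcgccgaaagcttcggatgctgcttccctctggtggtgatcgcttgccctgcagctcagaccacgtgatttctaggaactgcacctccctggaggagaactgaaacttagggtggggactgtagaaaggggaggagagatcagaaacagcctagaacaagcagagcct

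The first question was whether these genes stood at another level in the prefrontal cortex of pups with prenatal BPA exposure. Most were lower, by small amounts, and none passed the test over both sexes. Of the 32 genes listed in every library, 20 were lower with BPA in both sexes and 4 were higher in both, while the other 8 went opposite ways or showed no difference in 1 sex. Among all 16182 transcripts listed in every library, 38.8% were lower in both sexes and 23.9% were higher in both. For 17 of the 32 genes both BPA libraries lay below both control libraries, and for 3 they lay above, where the shares of all transcripts were 30.9% and 17.1%. The median log2 ratio of BPA to control over the 32 genes was -0.20 in males and -0.33 in females, beside -0.04 and -0.05 for all transcripts. In bulk tissue, fewer cells of a type and less RNA per cell cannot be told apart.

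For the test, limma was fitted to log2(FPKM + 0.5) of the 13163 transcripts with a mean of at least 1 FPKM, with male and female libraries as the replicates of a treatment and Benjamini-Hochberg adjustment. It called 0 of the 11 genes at an adjusted p under 0.05, while it called 0.562% of all transcripts tested. At an unadjusted p under 0.05 there were 5 of the 11, beside 17.3% of all transcripts. When limma was fitted only to the 10632 transcripts with an NCBI Gene ID, 4 of the 11 were called lower, where 3.79% of those transcripts were. These 4 were Ifitm2, Ifi27, B2m and Stat2, and their adjusted p-values in both fits are given with each gene. An exact permutation test of 2 against 2 libraries cannot give a p below 0.333.

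**Figure D2:**
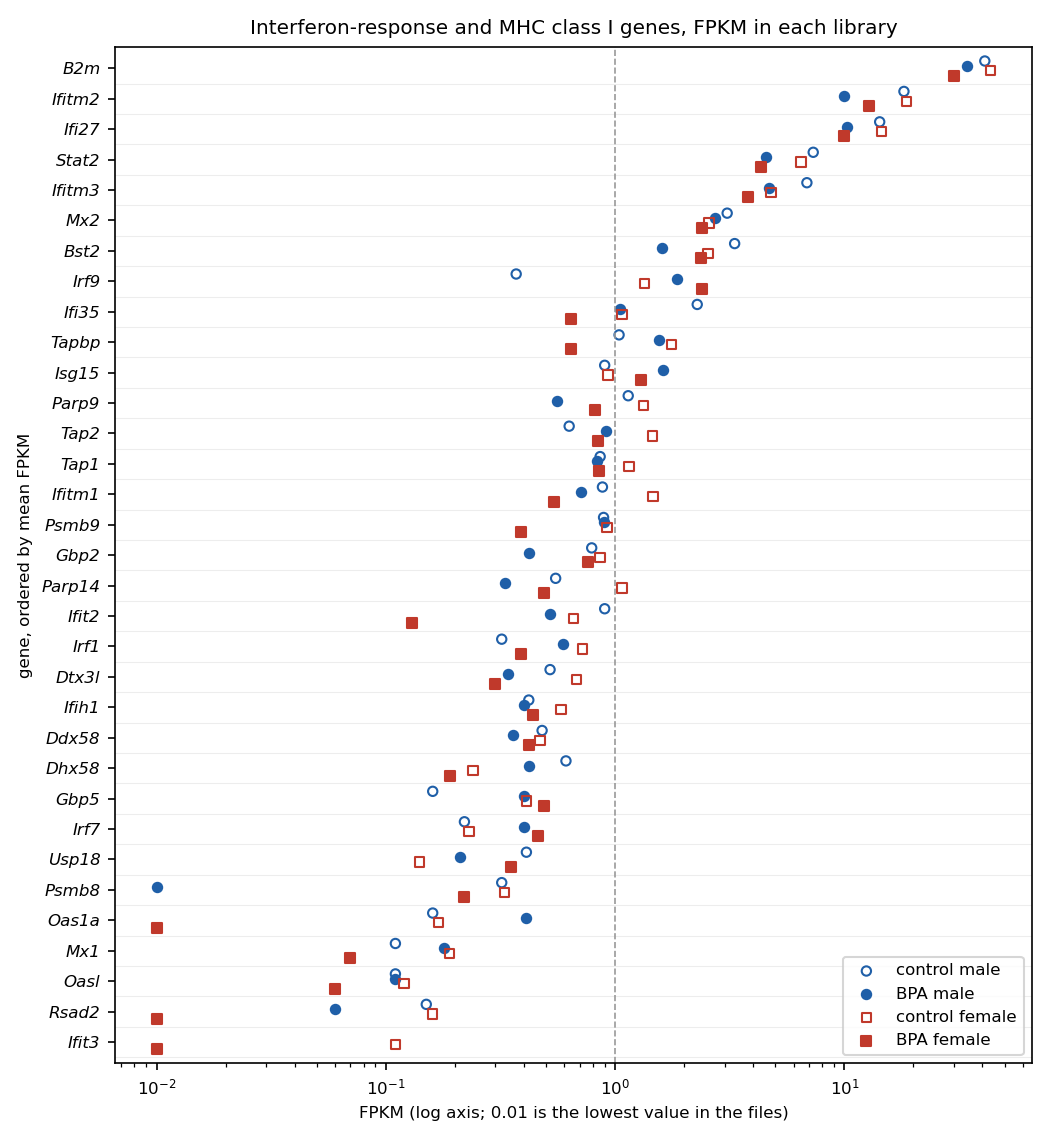
FPKM (x axis, log scale) of the 33 interferon-response and MHC class I genes (y axis, ordered by mean FPKM) in each library, with open symbols for control and filled for BPA, circles for males and squares for females. B2m stood between 30.04 and 43.29 FPKM, most of the other genes lay under 1 FPKM (dashed line), and points at 0.01 stand for no fragments.

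Markers of several cell types differed between the same libraries, so their values belong beside these counts. Among all transcripts tested, 40.1% were lower in both sexes and 25.9% were higher, and limma called 0.562%. Among cortical neuron markers, limma called Slc17a7 lower (adjusted p = 0.0274) and Neurod2 higher (adjusted p = 0.0481). Of 18 meninges and fibroblast markers, 18 were lower with BPA in both sexes and 11 were called lower by limma, and their summed level was 588.2 FPKM in the control male, 272.8 in the BPA male, 745.9 in the control female and 192.6 in the BPA female library. Of the 10 listed border macrophage markers, 4 reached the mean of 1 FPKM and all 4 were lower in both sexes, with sums over the 7 listed in every library of 12.6 and 6.9 FPKM in males and 14.8 and 6.3 in females. The class II genes on that list, which mark activated macrophages, were at 0.50 FPKM or less in each library, with Cd74 between 0.09 and 0.39. Of 14 endothelium markers, 11 were lower in both sexes, and their sum was 173.6 and 145.7 FPKM in males and 203.5 and 130.0 in females. Of 9 pericyte and smooth muscle markers with a mean of at least 1 FPKM, 5 were lower in both sexes and 1 was higher. Microglia markers summed to 58.7 and 56.6 FPKM in males and to 69.8 and 44.2 in females. Of the 10 with a mean of at least 1 FPKM, 4 were lower in both sexes, near the 40.1% of all transcripts, and 6 were mixed. In the limma fit to transcripts with a Gene ID, 15 meninges and fibroblast, 5 endothelium, 2 border macrophage, 2 pericyte and smooth muscle and 0 microglia markers were called lower. Of all transcripts in that fit, 3.79% were called lower.

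Markers of nearby brain regions differed as well. Beside them stand the same shares of all transcripts tested, 40.1% lower and 25.9% higher in both sexes. Of 9 striatal projection neuron markers, 8 were higher with BPA in both sexes, with sums of 92.5 and 126.5 FPKM in males and 95.9 and 136.4 in females. All 3 olfactory bulb projection neuron markers with a mean of at least 1 FPKM were lower in both sexes, with sums of 107.2 and 48.9 FPKM in males and 113.0 and 49.6 in females. The olfactory list shares Slc17a7 with the cortical one. In limma over all transcripts tested, the olfactory marker Cdhr1 was called lower (log2 ratio -2.04, adjusted p = 0.00834) and the striatal marker Penk higher (adjusted p = 0.0460). Of 6 listed lymphocyte and granulocyte markers, Cd4 alone reached the mean of 1 FPKM, and Ptprc, carried by all white blood cells, stayed between 0.10 and 0.46. Of 4 red blood cell markers tested, 3 were lower in both sexes, while the 6 choroid plexus markers listed in every library summed to 3.4 FPKM in both male libraries and to 4.4 and 2.7 in control and BPA females. The part of any of these cells in the values of the interferon genes was not tested.

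**Figure D3:**
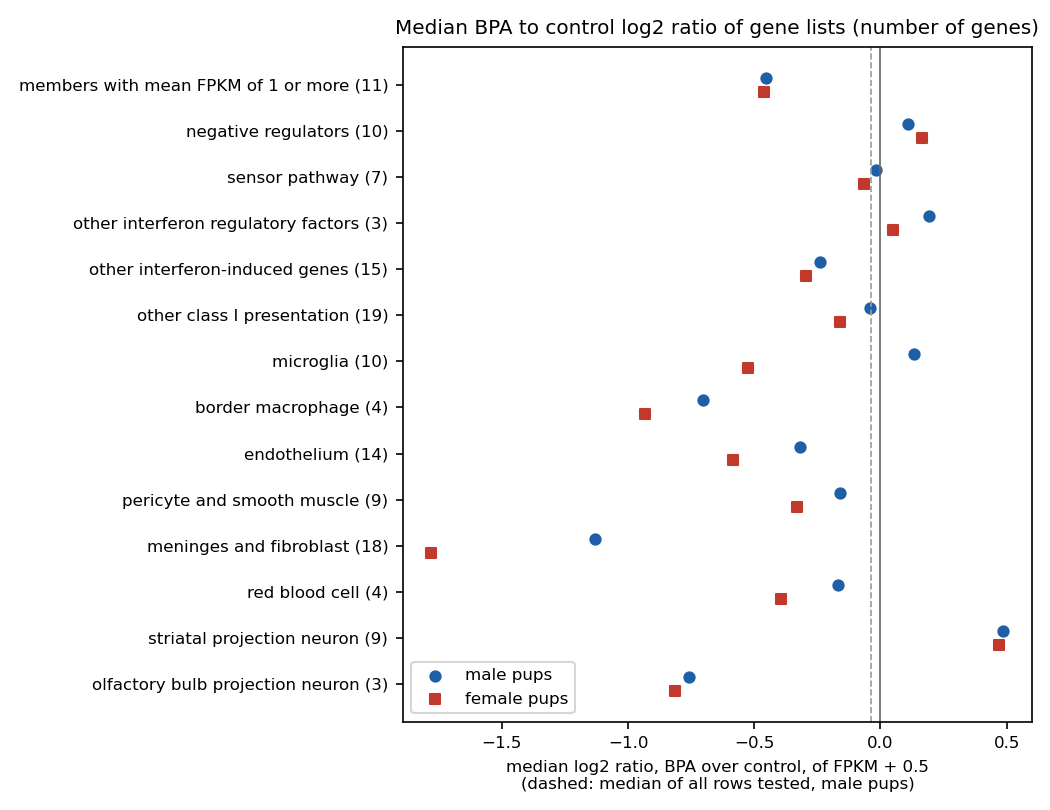
Median log2 ratio of BPA to control (x axis, on FPKM + 0.5) in males (circles) and females (squares) for the 11 interferon-response and MHC class I genes with a mean of at least 1 FPKM, for other lists of the pathway and for cell markers, with the number of genes in parentheses. The 11 genes lay at -0.45 and -0.46, below each of the pathway's other lists. Markers of meninges (-1.13 and -1.78), border macrophages (-0.703 and -0.932) and olfactory bulb projection neurons (-0.758 and -0.815) lay lower in both sexes. Endothelium (-0.584) and microglia (-0.526) markers lay lower than the 11 genes in females only.

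Among the transcription factors that drive the response, Stat2 and Irf9 went opposite ways. Stat2, the subunit of ISGF3 that activates transcription, was at 7.31 and 6.47 FPKM in the control male and female libraries and at 4.55 and 4.32 in the BPA male and female libraries. Both BPA libraries lay below both controls, and the groups did not overlap. The log2 ratio was -0.58 with a standard error of 0.13 (limma, adjusted p = 0.1296, and 0.0462 among transcripts with a Gene ID). The estimated fragments of Stat2 numbered 230 and 142 in males and 198 and 132 in females, so the ratio of BPA to control was 0.620 in males (exact 95% interval of counting error 0.50 to 0.768) and 0.665 in females (0.529 to 0.833).

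Irf9, the subunit of ISGF3 that recognises the ISRE, was at 0.37 and 1.34 FPKM in the control male and female libraries and at 1.87 and 2.39 in the BPA ones. The groups did not overlap, and the control male library was far below the control female. The log2 ratio was 1.05 with a standard error of 0.42 (limma, adjusted p = 0.274), and it was 0.51 without the control male library and 1.59 without the control female one. In males, with the pseudocount of 0.5, Irf9 was the only one of the 11 genes whose log2 ratio reached 1 in size, at 1.45, where 1.19% of all transcripts were at 1 or above and 1.88% at -1 or below. In females 0 of the 11 reached it, beside 1.19% and 2.90% of all transcripts. With a pseudocount of 0.1, Bst2 (-1.01) and Ifi35 (-1.05) reached it too in males, and Tapbp (-1.33) did in females. The fragments of Irf9 were 5 and 27 in males and 19 and 34 in females, which gave ratios of 5.43 (2.06 to 18.04) and 1.78 (0.989 to 3.31).

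The other regulators were scarce. Irf7, which amplifies interferon production, was at 0.22 and 0.23 FPKM in the control libraries and at 0.40 and 0.46 in the BPA ones, on 4 to 8 fragments each. Its BPA values lay above both controls, but the counting interval of its ratio included 1 in each sex, from 0.447 to 8.19 in males. Irf1, the factor most directly induced by interferon gamma, was at 0.32 and 0.59 FPKM in control and BPA males and at 0.72 and 0.39 in control and BPA females, so its groups overlapped.

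Each of the RNA sensors was lower with BPA in both sexes, by small amounts. Ddx58, which encodes the sensor RIG-I, was at 0.48 and 0.47 FPKM in the control male and female libraries and at 0.36 and 0.42 in the BPA ones. Ifih1, the sensor MDA5 of long double-stranded RNA, was at 0.42 and 0.58 in the controls and at 0.40 and 0.44 with BPA. Dhx58, the regulator LGP2 of both sensors, was at 0.61 and 0.24 in the controls and at 0.42 and 0.19 with BPA. Only Ddx58 had both BPA libraries below both controls. Together the sensors had 48 and 38 fragments in males and 44 and 36 in females, and every one of their 6 counting intervals included 1.

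The antiviral effectors were led by Ifi27, a small membrane protein whose gene is among those most readily induced by type I interferon. Ifi27 was at 14.25 and 14.47 FPKM in the control male and female libraries and at 10.27 and 9.97 in the BPA ones, so that the 2 libraries of each treatment were nearly level and the groups stood apart. The log2 ratio was -0.48 with a standard error of 0.09 (limma, adjusted p = 0.0825, and 0.0245 among transcripts with a Gene ID). Its fragments were 116 and 83 in males and 114 and 79 in females, giving ratios of 0.719 (0.536 to 0.961) and 0.691 (0.512 to 0.929).

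A further 3 effectors had a mean of at least 1 FPKM and were lower with BPA in both sexes. Bst2 (tetherin), which holds budding virus on the cell surface, was at 3.32 and 2.54 FPKM in the controls and at 1.60 and 2.37 with BPA, so the female libraries were close together (limma log2 ratio -0.47, standard error 0.25, adjusted p = 0.380). Ifi35, a cytoplasmic partner of Nmi, was at 2.28 and 1.07 in the controls and at 1.05 and 0.64 with BPA (limma log2 ratio -0.65, standard error 0.39, adjusted p = 0.429, with log2 ratios of -0.24 without the control male and -1.06 without the control female library). Mx2, a dynamin-like GTPase, was at 3.08 and 2.57 in the controls and at 2.72 and 2.39 with BPA (limma log2 ratio -0.12, standard error 0.20, adjusted p = 0.785). For Mx2 the BPA male library was above the control female one, so the groups overlapped, whereas for Bst2 and Ifi35 they did not.

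Isg15, a ubiquitin-like protein that is joined to other proteins during the response, was higher with BPA instead. It was at 0.90 and 0.93 FPKM in the control male and female libraries and at 1.62 and 1.29 in the BPA ones, on only 5 to 9 fragments each. Both BPA libraries lay above both controls (limma log2 ratio 0.46, standard error 0.29, adjusted p = 0.452). Usp18, the protease that removes Isg15 from its targets and restrains the receptor, was at 0.41 and 0.21 FPKM in control and BPA males and at 0.14 and 0.35 in control and BPA females, on 2 to 6 fragments.

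Ifit2, which binds foreign RNA and blocks its translation, was the scarce effector with the clearest difference in females. It was at 0.90 and 0.66 FPKM in the control male and female libraries and at 0.52 and 0.13 in the BPA ones, without overlap of the groups. Its fragments were 28 and 16 in males and 20 and 4 in females, giving ratios of 0.574 (0.290 to 1.10) and 0.199 (0.0496 to 0.595). Its neighbour Ifit3 was at 0.11 and 0.01 FPKM in the control and BPA female libraries, which was 2 fragments and 0.

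The guanylate-binding GTPases went in different directions. Gbp2 was at 0.79 and 0.86 FPKM in the control male and female libraries and at 0.42 and 0.76 with BPA, while Gbp5 was at 0.16 and 0.41 in the controls and at 0.40 and 0.49 with BPA. Every counting interval of both genes included 1. Mx1, Oas1a, Oasl and Rsad2, which are strongly induced in infected tissue, had at most 5 fragments in any library, and all of their values lay between 0.01 and 0.41 FPKM. Rsad2 (viperin) was at 0.15 and 0.16 FPKM in the controls and at 0.06 and 0.01 with BPA. Its counting intervals included 1 in both sexes, reaching from 0 to 1.09 in females, where 5 fragments stood against 0.

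The genes of the Parp9 and Dtx3l complex were lower throughout. Parp9 and Dtx3l encode a pair of proteins that add ADP-ribose and ubiquitin and enhance interferon signalling, and Parp14 is a related ADP-ribosyltransferase. In the RefSeq gene order the genes lie side by side on chromosome 11 with 0 protein-coding genes between neighbours. For each of them both BPA libraries lay below both controls, an order that 30.9% of all transcripts listed in every library showed. Parp9 was at 1.14 and 1.33 FPKM in the control male and female libraries and at 0.56 and 0.82 in the BPA ones. Parp14 was at 0.55 and 1.07 in the controls and at 0.33 and 0.49 with BPA, and Dtx3l was at 0.52 and 0.68 in the controls and at 0.34 and 0.30 with BPA.

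Their mean levels were 0.963 FPKM for Parp9, 0.610 for Parp14 and 0.460 for Dtx3l, so none of the group entered limma. Summed over the 3 genes, the fragments numbered 92 and 52 in males and 133 and 67 in females. The counting interval lay below 1 for Parp9 in males, with a ratio of 0.487 (0.250 to 0.910), and for Parp14 and Dtx3l in females, with ratios of 0.461 (0.291 to 0.716) and 0.447 (0.213 to 0.887).

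The interferon-induced transmembrane proteins Ifitm1, Ifitm2 and Ifitm3, which stop viruses from fusing with cell membranes, were also lower in both sexes. For each the groups did not overlap, where 30.9% of all transcripts listed in every library had both BPA libraries below both controls. Their genes are neighbours on chromosome 1 and resemble each other, and how RSEM divided reads shared by such copies is not visible in the values. Ifitm2 was at 18.18 and 18.60 FPKM in the control male and female libraries and at 9.92 and 12.84 in the BPA ones. This was the largest absolute log2 ratio among the 4 genes called in the fit to transcripts with a Gene ID, at -0.68 with a standard error of 0.13 (limma, adjusted p = 0.0912, and 0.0135 among transcripts with a Gene ID). Its fragments were 96 and 52 in males and 95 and 66 in females, giving ratios of 0.544 (0.381 to 0.770) and 0.693 (0.498 to 0.958).

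Ifitm3 was at 6.86 and 4.79 FPKM in the control male and female libraries and at 4.67 and 3.81 in the BPA ones (limma log2 ratio -0.40, standard error 0.20, adjusted p = 0.360). The BPA male value was just under the control female one. Ifitm1 was at 0.88 and 1.46 FPKM in the controls and at 0.71 and 0.54 with BPA, on 3 to 8 fragments. The meninges and endothelium markers given above were lower in the same libraries, and whether they share in the lower Ifitm values was not tested.

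**Figure D4:**
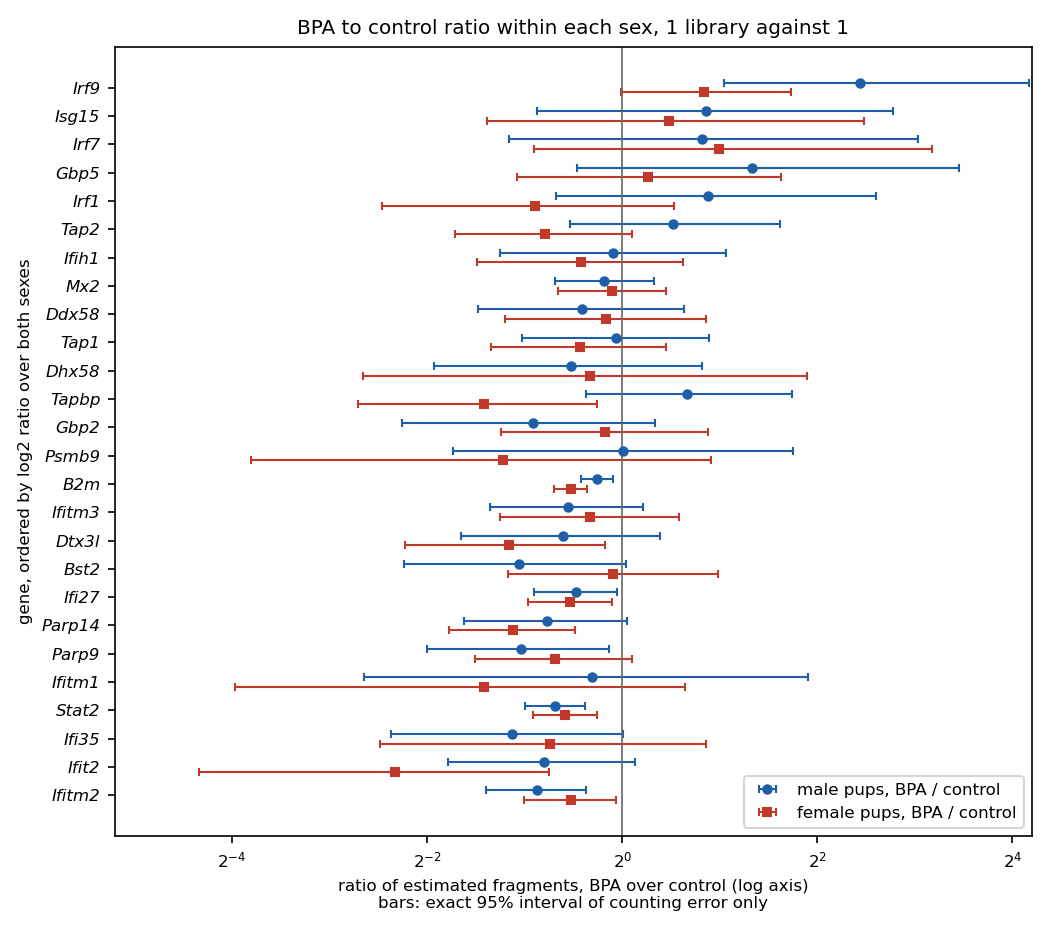
Ratio of estimated fragments, BPA over control (x axis, log scale), in males (circles) and females (squares) for the 26 genes with at least 20 fragments over the 4 libraries (y axis). Bars are exact 95% intervals that cover counting error only. The intervals of B2m, Stat2, Ifi27 and Ifitm2 lay below 1 in both sexes, and only that of Irf9 in males, from 2.06 to 18.04, lay above 1.

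MHC class I display was represented by its light chain and by the genes that make and load peptides. B2m was the most abundant of the 33 genes and held between 43.2% and 46.1% of their fragments in each library. It was at 40.96 and 43.29 FPKM in the control male and female libraries and at 34.12 and 30.04 in the BPA ones, so both BPA libraries lay below both controls. The log2 ratio was -0.39 with a standard error of 0.08 (limma, adjusted p = 0.117, and 0.0292 among transcripts with a Gene ID). Its fragments were 675 and 560 in males and 694 and 483 in females, giving ratios of 0.833 (0.744 to 0.934) and 0.694 (0.617 to 0.781).

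The peptide machinery did not share a direction. Tapbp (tapasin), which bridges the peptide transporter and the heavy chain, was at 1.04 and 1.56 FPKM in control and BPA males and at 1.76 and 0.64 in control and BPA females. It was thus higher with BPA in males and lower in females (limma log2 ratio -0.28, standard error 0.40, adjusted p = 0.751). Tap2, a subunit of the transporter, showed the same pattern, at 0.63 and 0.91 FPKM in males and at 1.45 and 0.84 in females. Tap1, the other subunit, was at 0.86 and 0.83 in males and at 1.15 and 0.85 in females.

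The immunoproteasome subunits, which replace standard catalytic subunits when interferon is present, were scarce. Psmb9 was at 0.89 FPKM in both male libraries and at 0.92 and 0.39 in control and BPA females. Psmb8 was at 0.32 and 0.01 FPKM in control and BPA males and at 0.33 and 0.22 in control and BPA females, on 3 fragments or fewer, which is not above the limit that a count of 0 allows. Tap2, Psmb8, Tap1 and Psmb9 follow each other in the RefSeq gene order of chromosome 20, and the windows before the starts of Tap1 and Psmb9, which are read from opposite strands, share 44 bases.

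Genes with and without the ISRE core were described side by side. Of the 16 genes with a core, 10 were lower with BPA in both sexes, 2 were higher and 3 were mixed, and Ifit3 was listed in 1 sex only. Of the 10 genes with a window but no core, 5 were lower in both sexes, 1 was higher and 4 were mixed. Among all transcripts listed in every library, 38.8% were lower in both sexes and 23.9% were higher. Many of the genes in both groups were scarce, and a link between the core and the direction was not tested. B2m, Ifitm2 and Ifi27, whose cores are printed above, were lower in both sexes, while Tapbp, with 2 overlapping cores, was mixed. Stat2 and Irf9, both without a core, differed in opposite directions.

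The second question was whether males and females differed in their ratios. Between the BPA ratios of the sexes, with the pseudocount of 0.5, only Tapbp among the 11 genes reached an absolute difference of 1 on the log2 scale, at 1.41 (male minus female), where 4.44% of all transcripts did. The counting interval of the difference left out 0 for 3 of the 11 genes, beside 21.4% of all transcripts. These were Tapbp (0.61 to 3.55), Irf9 (0.01 to 3.20) and B2m (0.03 to 0.50), and the interval covers counting error alone. For Ifi27 the difference was 0.06, with an interval from -0.52 to 0.64, and for Stat2 it was -0.10, from -0.54 to 0.34.

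The intervals of the BPA to control ratio themselves lay below 1 for 5 of the 32 genes in males and 8 in females, beside 19.1% and 20.6% of the transcripts listed in every library. B2m, Stat2, Ifi27 and Ifitm2 were among them in both sexes, joined in males by Parp9 and in females by Tapbp, Ifit2, Parp14 and Dtx3l. An interval above 1 was seen for 1 gene in males, Irf9, and for 0 in females, beside 12.5% and 12.1% of those transcripts. Between libraries of the same treatment, with that pseudocount, Irf9 was the only one of the 11 genes past an absolute log2 difference of 1 in the controls, with the female library 1.08 higher, where 2.27% of all transcripts were past it. In the BPA libraries 0 of the 11 were past it, beside 2.47% of all transcripts.

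Upstream of the 33 genes, the interferon signal itself was hardly seen. Of 10 interferon genes looked for, only Ifna4 was listed, and only in the female libraries, at 0.01 FPKM in the control and 0.43 in the BPA library, the latter on 2 fragments. Of the receptor chains, Ifnlr1, which binds interferon lambda, was at 0.14 FPKM or less in each library. Ifnar1 was at 36.87 and 36.94 FPKM in the control male and female libraries and at 42.34 and 38.79 in the BPA ones (limma log2 ratio 0.13, standard error 0.07, adjusted p = 0.377). Ifngr1, the receptor for interferon gamma, was at 12.03 and 12.09 in the controls and at 13.20 and 14.60 with BPA (limma log2 ratio 0.20, adjusted p = 0.335).

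Among the kinases and the remaining receptor chains, Jak1, the kinase shared by the type I and gamma receptors, was at 45.10 and 47.47 FPKM in the controls and at 37.53 and 38.97 with BPA (limma log2 ratio -0.27, standard error 0.06, adjusted p = 0.134). Il10rb, a chain of the lambda receptor, was at 1.55 and 1.28 in the controls and at 1.00 and 1.08 with BPA. Both Jak1 and Il10rb had both BPA libraries below both controls, and limma called neither.

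The negative regulators of the pathway were more often higher. Of 10 tested, 6 were higher with BPA in both sexes and 2 were lower, with a median log2 ratio of 0.14, and limma called 0. Among all transcripts tested, 25.9% were higher in both sexes and 40.1% were lower, and 0.562% were called. Socs2, a suppressor of cytokine signalling, was at 4.39 and 4.04 FPKM in the controls and at 4.80 and 5.52 with BPA. Adar, which edits double-stranded RNA so that the sensors ignore it, was at 23.90 and 25.17 in the controls and at 27.57 and 28.44 with BPA (limma log2 ratio 0.19, standard error 0.07, adjusted p = 0.256). The phosphatase Ptpn1 was at 24.22 and 24.25 in the controls and at 26.91 and 28.18 with BPA. Ptpn6, a phosphatase found mainly in blood-derived cells, was at 1.47 and 2.15 in the controls and at 0.89 and 1.28 with BPA, and Ptpn2 was at 5.34 and 5.83 in the controls and at 4.57 and 4.98 with BPA.

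In the pathway below the RNA and DNA sensors, 4 of 7 tested genes were lower in both sexes and 1 was higher, beside 40.1% and 25.9% of all transcripts tested, and limma called 0, beside 0.562%. Trim25, which activates RIG-I, was at 1.86 and 3.0 FPKM in the control male and female libraries and at 1.42 and 2.0 with BPA. Nfkb1 was at 2.99 in both controls and at 2.33 and 2.41 with BPA, and the adaptor Mavs was at 2.87 and 2.89 in the controls and at 2.65 and 2.54 with BPA. Irf3, which starts interferon transcription, was at 6.18 and 8.21 in the controls and at 6.82 and 8.53 with BPA, so its groups overlapped.

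Of the other interferon regulatory factors and their partners, 3 were tested. Irf2, which competes with Irf1, was at 2.65 and 2.59 FPKM in the controls and at 1.75 and 1.52 with BPA (limma log2 ratio -0.55, standard error 0.21, adjusted p = 0.267). Irf2bp1 was at 20.56 and 22.35 in the controls and at 26.57 and 26.92 with BPA (limma log2 ratio 0.31, standard error 0.08, adjusted p = 0.140). Irf2bpl was at 41.16 and 45.52 in the controls and at 47.17 and 47.09 with BPA.

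Other interferon-induced genes were mostly lower too. Of 15 tested, 12 were lower with BPA in both sexes and 1 was higher, limma called 0, and the median log2 ratio was -0.27. Among all transcripts tested, 40.1% were lower in both sexes, 25.9% were higher, 0.562% were called and the median was -0.04. Apol3 was at 1.76 and 2.48 FPKM in the control male and female libraries and at 1.41 and 0.64 in the BPA ones. Sp110, a nuclear-body protein, was at 1.82 and 1.49 in the controls and at 1.14 and 0.52 with BPA, and Ifi44 was at 1.85 and 0.93 in the controls and at 0.76 and 0.54 with BPA. The exception was Cmpk2, a mitochondrial nucleotide kinase, at 4.95 and 5.42 in the controls and at 6.12 and 6.06 with BPA (limma log2 ratio 0.21, adjusted p = 0.424).

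Among the other genes of class I display, 8 of 19 tested were lower in both sexes, 4 were higher and limma called 0, with a median log2 ratio of -0.10. These shares lay near the 40.1% lower and 25.9% higher of all transcripts tested, whose median was -0.04. Calr, the chaperone calreticulin that holds new heavy chains, was at 263.20 and 264.02 FPKM in the control male and female libraries and at 220.02 and 200.07 in the BPA ones (limma log2 ratio -0.33, standard error 0.07, adjusted p = 0.1003). Erap1, which trims peptides, was at 2.40 and 2.71 in the controls and at 1.54 and 1.74 with BPA. Rfxap, a subunit of the factor that binds MHC promoters, was higher, at 20.22 and 21.04 in the controls and at 26.61 and 28.41 with BPA (limma log2 ratio 0.41, standard error 0.07, adjusted p = 0.0845). Among transcripts with a Gene ID, the adjusted p was 0.0264 for Calr and 0.0230 for Rfxap.

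The remaining higher genes of that list were close to their controls. Rfx5, another subunit of the same factor, was at 4.73 and 5.41 FPKM in the controls and at 5.26 and 5.87 with BPA, and the standard proteasome subunit Psmb6 was at 66.65 and 66.42 in the controls and at 72.56 and 70.25 with BPA. The rat class I heavy chains are many similar RT1 genes, among which shared reads may have been split. RT1-CE16 had the highest level of those listed, at 6.02 and 6.48 FPKM in control and BPA males and at 8.14 and 5.02 in control and BPA females (limma log2 ratio -0.27, adjusted p = 0.491), and it is named here after its values were seen. RT1-T24-4, a member of the list named by rule, was at 1.67 and 1.73 in the controls and at 1.19 and 1.17 with BPA (limma log2 ratio -0.39, adjusted p = 0.467).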

How the data were processed

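Prefrontal cortex RNA of 4 libraries, 1 per sex and prenatal treatment, was analyzed. The authors sequenced polyadenylated RNA on an Illumina HiSeq, aligned it by Bowtie 2 to the rat build Rnor_6.0 and estimated expression by RSEM. The submitters' processing notes also name HISAT. Versions are not given in the sources used here. The deposited values are FPKM, normalized by the authors for transcript length and library depth, with 2 decimals and 0.01 in place of 0. Each symbol stood on 1 row, and assembled transcripts without a symbol were not assigned to genes.

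Log2 ratios were taken on log2(FPKM + 0.5). BPA and control were compared over both sexes with limma 3.58.1 (R 4.3.3) on transcripts whose mean reached 1 FPKM. The fit had treatment alone as a term, a prior variance with a trend, 2 residual degrees of freedom and Benjamini-Hochberg adjustment over all transcripts tested. The files hold no counts. Depth was taken as the fragment total that best turned FPKM, multiplied by length less 60 bases, into whole numbers, and 85.9% to 88.6% of 876 to 920 scarce transcripts per library came within 0.1 of one. A count test was not run, since effective lengths were estimated. Exact binomial 95% intervals on these fragments cover counting error only, and a count of 0 allows up to 3 fragments. The fit and the recovery of depth were tested on simulated data. The simulation for the fit gave all genes the same spread between libraries and no difference between the sexes. It therefore does not show how the fit behaves on the real libraries. Motifs were searched in RefSeq windows of GRCr8, which is another build than that of the FPKM values. Python 3.11.15, numpy 2.4.6, pandas 2.3.3, scipy 1.17.1 and matplotlib 3.10.9 were used.

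The 33 genes, the pathway and marker lists and the tests were chosen with earlier results of these data known. The text names all 33, and from each pathway list up to 3 genes higher and 3 lower in both sexes with the largest ratios. Alternatives were another pseudocount, filter, term, prior, centring or set of transcripts, and leaving out each library. Some results are not reported here.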

Additional observations from a re-analysis of the deposited data

Results flagged for a closer look

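In 6 of the genes the male libraries differed one way and the female libraries the other. With 1 library per sex and treatment, the difference between the sexes was not tested. The male minus female difference in log2 ratio was 1.41 for Tapbp, on 9 to 24 fragments per library, and 0.86 for Tap2, on 14 to 31 fragments. It was 0.87 for Irf1, 0.86 for Oas1a, 0.43 for Mx1 and -0.77 for Usp18, all on 13 fragments or fewer per library. On estimated fragments, the 95% interval of counting error for the difference lay from 0.61 to 3.55 for Tapbp and from 0.02 to 2.60 for Tap2, and it included 0 for Irf1, Mx1 and Usp18. In Oas1a the BPA female library had 0 fragments.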

How the results depend on the processing

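Under the 13 alternatives of limma, the number of the 11 genes called stayed at 0 except when only transcripts with an NCBI Gene ID were fitted, which gave 4, and the cause was not tested. It was 0 without each library in turn, with the lone library of a treatment assumed to vary like the others. With sex as a second term, which pairs the libraries of a sex, it was 0 as well, with 6 at an unadjusted p under 0.05. Of 137 recomputed log2 ratios, 132 kept their direction and side of the threshold, 4 passed it in the Gene ID fit, and Tapbp, which ranged from -0.71 to 0.14 without each library in turn, reversed without the BPA female library. Without each library in turn, Irf9 ranged from 0.51 to 1.59, Ifi35 from -1.06 to -0.24, Ifitm3 from -0.64 to -0.16 and Mx2 from -0.23 to -0.01, each farthest apart between leaving out the control male and the control female library. Bst2 moved from -0.47 to -0.25 without the BPA male library and to -0.31 without the control male one. Among all transcripts limma called 74, beside 0 without a filter or without the trend, 164 at a mean of at least 5 FPKM, 477 among those with a Gene ID and 0 to 6 without each library, so a count of 0 in the settings that call almost nothing says little about these genes. The median log2 ratio of the genes tested ranged from -0.50 to -0.30. The adjusted p ranged from 0.0135 to 0.347 for Ifitm2, from 0.0245 to 0.351 for Ifi27, from 0.0292 to 0.403 for B2m and from 0.0462 to 0.398 for Stat2.

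For ratios of single libraries the pseudocount set how many of the 11 genes passed an absolute log2 ratio of 1. With a pseudocount of 0.1 they were 3 in males and 1 in females, 2 between the control libraries and 1 between the BPA libraries, and 2 for the difference between the sexes. With a pseudocount of 1 there were 0 between the controls, and with a mean of at least 5 FPKM, which kept 5 genes, there were 0 in males. Of 195 recomputed ratios of single genes within a sex, 2 changed sign, Ifih1 and Tap1 in males, both on centring. At this depth 8 of the 33 genes had at most 20 fragments over all libraries.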
